A study of Mus musculus with 19 samples.

Results

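The change from late day to dusk was followed in spinal cord cholinergic neurons by comparing 3 libraries collected at ZT12 with 3 collected at ZT8, 6 of the 19 libraries of the series. Zeitgeber time (ZT) counts hours from lights on, so that ZT8 falls in the light phase and ZT12 is the hour of lights off. All 6 mice were male, 10 wk old and carried ChAT-Cre and RiboTag fx/+, which puts a hemagglutinin tag on ribosomes of cells that express Cre from the choline acetyltransferase promoter. The labels call them wild-type, since the clock genes were left intact. Tagged ribosomes were precipitated from a whole spinal cord, so each library averages every cholinergic cell of the cord, motor neurons and others together. The label "spinal cord cholinergic neurons" was checked against the library of pooled input. All 7 cholinergic markers lay above the input, with a median log2 ratio of 2.20, and all markers of the 7 other cell types lay below it, the astrocyte list lowest by median (-4.04) and the excitatory neuron list nearest (-1.50). No marker was at 0 in all 6 libraries, so RNA of other cells was still present. Total expected counts were 14677638, 19064826 and 16360462 in ZT8 replicates 1, 2 and 3, and 12188843, 9762466 and 16816651 in ZT12 replicates 1, 2 and 3. Replicates of a time point differed by more than counting noise in every pair, with a chi-square per gene from 12.5 to 51.5.

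In mice, which are active at night, dusk is the start of the active phase. The clock in each cell is a loop in which BMAL1 and CLOCK switch on genes through E-boxes, the PER and CRY proteins they induce then repress them, and REV-ERB and ROR proteins set the level of Bmal1 (Arntl). DBP, TEF, HLF and the repressor NFIL3 pass the rhythm on through D-boxes, and the ribosome-bound mRNA measured here is the pool in use for translation.

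The libraries of ZT8 were not alike. On the first principal component of log2 CPM (read counts scaled to library size by TMM) over 9214 genes, which held 52.8% of the variance among the 18 immunoprecipitates, ZT8 replicates 1, 2 and 3 scored 5.03, 42.6 and 29.7. ZT12 replicates 1, 2 and 3 scored 8.33, -1.72 and -12.4. ZT8 replicate 1 thus lay among the ZT12 libraries, and the groups overlapped. The mean was 25.8 ± 19.1 (SD, n = 3) at ZT8 and -1.92 ± 10.4 at ZT12, a difference of -27.7 (exact permutation test, two-sided, p = 0.2, where 3 against 3 cannot go below 0.1). Values without it are given beside many of the results that it moved.

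**Figure D1:**
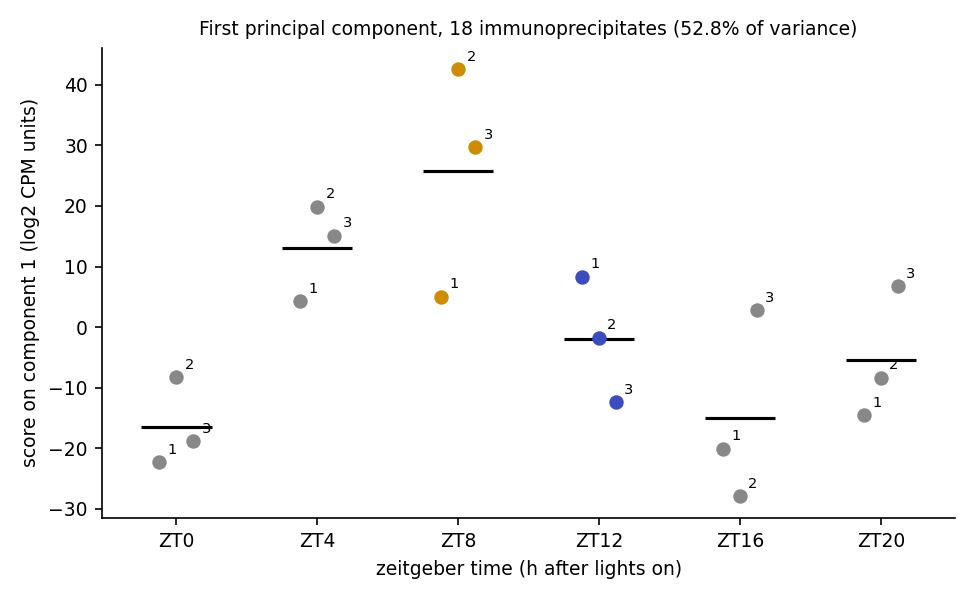
Score on the first principal component (vertical axis, log2 CPM units) of the 18 immunoprecipitates at the 6 time points (horizontal axis), with ZT8 in orange, ZT12 in blue, the replicate number beside each point and the group mean as a bar. ZT8 replicate 1 sits at 5.03, near ZT12 replicate 1 at 8.33, while the other ZT8 libraries sit at 42.6 and 29.7.

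Across the 15572 genes tested, no gene passed a false discovery rate of 0.05 between ZT12 and ZT8 (edgeR quasi-likelihood test on all 18 immunoprecipitates, 0% called). The lowest false discovery rate was 0.0590, shared by 71 genes, and 785 genes lay under 0.1, of which 497 were higher at ZT12 and 288 lower. Without adjustment, 3275 genes (21%) had a p under 0.05, of which 1763 were higher (11.3%) and 1512 lower (9.71%). The 3 values of ZT12 lay entirely above those of ZT8 in 1510 genes (9.7%) and entirely below in 1402 (9%). DESeq2 called 859 of the 10438 genes to which it gave an adjusted p (8.23%), 541 higher (5.18%) and 318 lower (3.05%). Without ZT8 replicate 1, edgeR called 2141 of 16109 genes (13.3%), 1377 higher (8.55%) and 764 lower (4.74%). Of these, 2134 were also tested with the library included, and 2133 had the same sign there, 1918 with an unadjusted p under 0.05. The fits share all other libraries, so this agreement is not independent. ZT8 replicate 1 was the ZT8 library nearest to ZT12 on the first component, so values without it are not separate evidence. Leaving out any other single library of ZT8 or ZT12 gave 0 genes called. Without ZT16 replicate 3, which is in neither group but enters the shared spread and the filter on low counts, 295 of 16088 genes were called. For comparison, at an unadjusted p under 0.05 the same fit gave 398 genes higher and 529 lower at ZT8 than at ZT4, and 479 higher and 424 lower at ZT16 than at ZT12. Between ZT16 and ZT8 it gave 2498 higher and 2326 lower, of which 2633 genes passed the false discovery rate. All of these share libraries with the comparison described here. In whole-cord precipitates, fewer tagged cells and less of an mRNA per cell cannot be told apart.

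Of the genes that were lower in every ZT12 library, Slc5a3, the sodium/myo-inositol cotransporter, had the lowest p. It was at 32.8, 46.4 and 37.7 CPM in ZT8 replicates 1, 2 and 3 and at 23.5, 22.9 and 19.3 CPM in ZT12 replicates 1, 2 and 3. Every ZT12 library lay below every ZT8 library, at a log2 difference of -0.84 (SE, 0.14; edgeR false discovery rate, 0.0590; 0.000858 without ZT8 replicate 1). The annotation places Slc5a3 (chr16:92058322-92087473, GRCm38.p6) inside the span of Mrps6, so reads of the overlap could belong to either gene. Bcl2l2, which encodes the anti-apoptotic protein BCL-W, went from 254, 353 and 297 CPM to 195, 189 and 178 CPM (log2 difference, -0.69; SE, 0.13). Its ZT12 libraries lay close together and below the whole ZT8 range. Rian, an imprinted long noncoding RNA on chromosome 12, was at 275, 330 and 315 CPM and then at 210, 199 and 212 CPM (-0.57; SE, 0.10). Chordc1, a co-chaperone of HSP90, was at 90.4, 144 and 104 CPM and then at 62.4, 67.8 and 56.4 CPM (-0.86; SE, 0.16). These genes, like Mkx (a homeobox factor, -0.95), Hmgn5 (a nucleosome-binding protein, -1.42), Ccdc85c (-0.54), Rnf182 (a ubiquitin ligase, -1.002), Ubfd1 (-0.55) and Ptp4a1 (a tyrosine phosphatase, -0.72), all stood at a false discovery rate of 0.0590. Each of the 10 was called without ZT8 replicate 1 (0.000858 to 0.00356) and by DESeq2. Slc5a3 was also lower at ZT12 than at any other time point by its mean, which was 21.9 ± 2.27 CPM (SD, n = 3) there, against 39.0 ± 6.87 CPM at ZT8 and, at the remaining times in the order ZT0, ZT4, ZT16 and ZT20, 33.2 ± 1.45, 35.2 ± 2.05, 29.7 ± 0.952 and 28.8 ± 3.93 CPM. Bcl2l2 and Rian were highest at ZT8 and stayed near the ZT12 level at ZT16, at 195 ± 28.2 and 196 ± 12.9 CPM.

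Among the 10 genes of lowest p that were higher in every ZT12 library was Pank4. This gene, of the pantothenate kinase family, was at 14.8, 8.04 and 11.8 CPM at ZT8 and at 20.6, 27.8 and 24.4 CPM at ZT12 (log2 difference, 1.08; SE, 0.21). Surf1, an assembly factor of cytochrome c oxidase, was at 41.2, 25.3 and 33.97 CPM and then at 55.8, 58.8 and 46.8 CPM (0.68; SE, 0.14). Eci2, an isomerase of fatty acid oxidation, was at 20.02, 17.2 and 14.8 CPM and then at 27.8, 26.8 and 32.02 CPM (0.74; SE, 0.15). In all of them the lowest ZT12 library exceeded the highest ZT8 library. Lcn2, the siderophore-binding iron carrier lipocalin 2, was at 5.04, 2.43 and 5.84 CPM and then at 9.66, 10.3 and 13.7 CPM (1.35; SE, 0.27). Slc22a17, which encodes its receptor, was at 219, 47.4 and 95.4 CPM and then at 252, 299 and 366 CPM (1.35; SE, 0.36; edgeR false discovery rate, 0.0730). Here ZT8 replicate 1 reached 219 CPM, nearer to the ZT12 libraries than to its own group, and the difference was 2.12 without it. Zswim4 (1.04), the integrin gene Itgb4 (1.83), the kinase gene Map3k6 (2.68) and Sirt6, a deacylase of chromatin (2.18), were in the set as well, the last 3 at under 5 CPM in every library, where few counts carry the value. Pcdha3 and Hba-a1, described further on, made up the rest, and Slc22a17 is named for the size of its difference. The genes of this paragraph were called without ZT8 replicate 1, at false discovery rates from 0.000537 (Slc22a17) to 0.0109 (Hba-a1) in edgeR. Over the day Lcn2 averaged 12.6 ± 2.11 CPM at ZT0, 4.74 ± 0.738 at ZT4, 4.43 ± 1.78 at ZT8, 11.2 ± 2.14 at ZT12 and 13.2 ± 1.10 at ZT16.

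Several large differences belong to genes whose reads are hard to assign. Pcdha3, a protocadherin alpha gene that shares exons with the other members of its cluster, had no count in any ZT8 library and 60.9, 21.0 and 9.42 CPM at ZT12. Against a floor of 3 counts over the ZT8 group this is at least 502-fold higher, but counting divides shared reads between cluster members by a model. Srp54a, a signal recognition particle gene with near-identical copies, was at 43.0, 97.4 and 102 CPM and then at 40.7, 25.6 and 35.5 CPM (log2 difference, -1.25). Fth1, the ferritin heavy chain for iron storage, and Eno1b, an enolase copy, have near-identical relatives too. Fth1 was at 448, 135 and 198 CPM at ZT8 and at 500, 633 and 628 CPM at ZT12 (1.17; edgeR false discovery rate, 0.0706; 0.000101 without ZT8 replicate 1). As with Slc22a17, ZT8 replicate 1 stood apart from its own group. The same shape, with the first ZT8 library close to ZT12, was found for Cdc37, a co-chaperone that brings kinases to HSP90 (90.01, 23.9 and 38.5 CPM against 105, 154 and 160 CPM), for Nme2, a nucleoside diphosphate kinase (52.8, 18.0 and 20.6 against 60.2, 81.6 and 63.3), and for Got2, the mitochondrial aspartate aminotransferase (230, 122 and 129 against 254, 267 and 300). Their log2 differences of 1.46, 1.17 and 0.77 were 2.18, 1.84 and 1.14 without that library. Impdh2, of guanine nucleotide synthesis, was at 56.9, 33.2 and 29.1 CPM and then at 66.8, 81.1 and 69.6 CPM, and its log2 difference went from 0.87 to 1.23 without that library. Abcg4 (a sterol transporter, 1.39, and 2.08 without it) and Man2b2 (a lysosomal mannosidase, 1.39, and 1.87) were higher and Mal2 (-0.99), the ETS factor gene Etv1 (-0.93) and the RNA exosome gene Exosc6 (-0.90) lower in all ZT12 libraries.

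**Figure D2:**
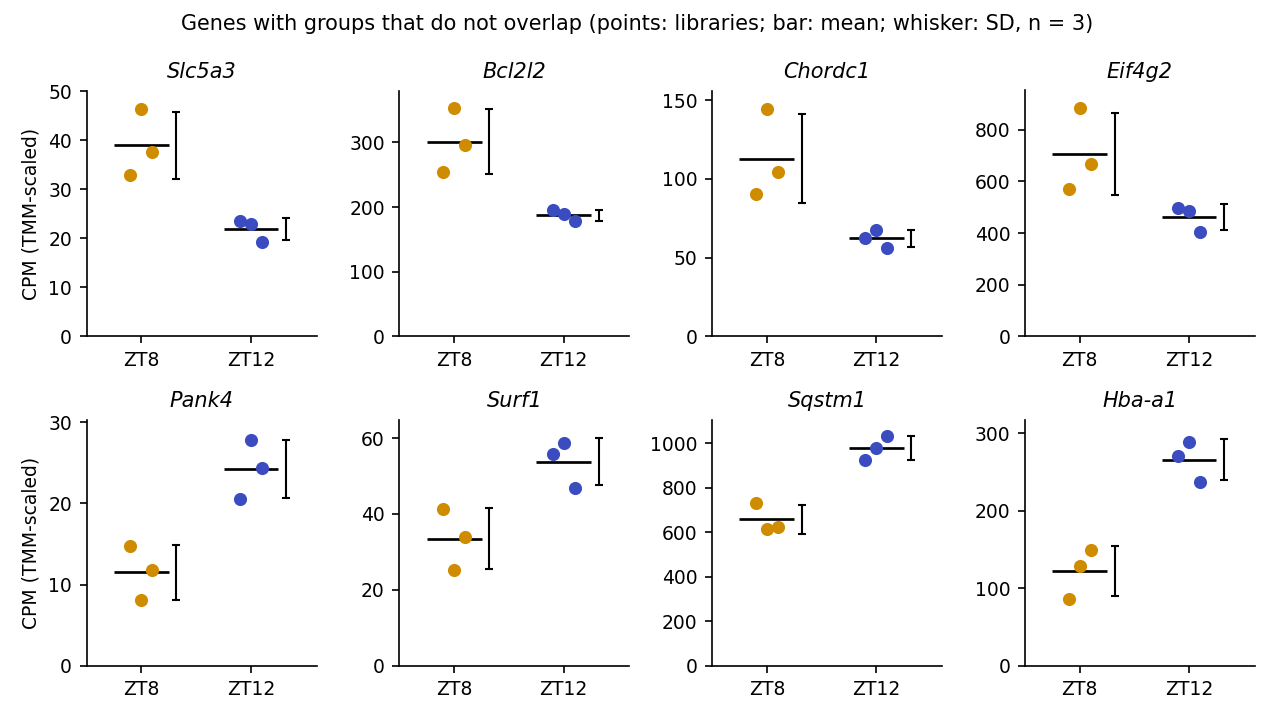
TMM-scaled CPM (vertical axes, from 0) of 8 genes in the 3 ZT8 (orange) and 3 ZT12 (blue) libraries, with the mean as a bar and the SD (n = 3) as a whisker. The genes were picked from those with groups that do not overlap, so no ZT12 point falls inside the ZT8 range. Of all genes, 9.7% were higher and 9% lower in this way. Slc5a3, Bcl2l2, Chordc1 and Eif4g2 are lower and Pank4, Surf1, Sqstm1 and Hba-a1 higher at ZT12.

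Of the 20 clock genes, none passed adjustment over all genes (edgeR). At an unadjusted p under 0.05, 4 were higher (Dbp, Per3, Nr1d1, Nfil3) and 4 lower (Clock, Nr1d2, Rora, Bhlhe41), against 11.3% and 9.71% of all genes. The median log2 difference was 0.08 over the 20 and -0.0023 over all tested genes. Dbp, an activator of D-box genes, was at 15.7, 16.0 and 15.2 CPM at ZT8 and at 22.0, 23.5 and 21.8 CPM at ZT12. The ranges did not overlap, and the difference was 0.52 (SE, 0.17; 95% interval, 0.17 to 0.88; edgeR false discovery rate, 0.106, and 0.0698 without ZT8 replicate 1). Its mean was highest at ZT12 among the 6 time points and was back to 15.1 ± 2.93 CPM at ZT16.

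The repressors of the loop differed among themselves. Per3 was at 8.24, 6.26 and 6.70 CPM and then at 11.4, 9.07 and 12.1 CPM (0.63; SE, 0.30), with every ZT12 library above ZT8. Per1 (0.09), Per2 (0.38), Cry1 (0.07), Cry2 (-0.08) and Ciart (0.14) overlapped between the times. Per2 had a false discovery rate of 0.516 and an interval from -0.27 to 1.03, so a difference in either direction was not detectable for this gene. Among the activators, Clock was at 24.6, 33.1 and 26.6 CPM and then at 21.9, 20.4 and 22.9 CPM (-0.37; SE, 0.15), without overlap. Arntl, whose protein BMAL1 is the partner of CLOCK, was at 4.83, 5.29 and 6.63 CPM and then at 6.61, 5.42 and 6.24 CPM (0.13), and Npas2 was at or below 2.16 CPM.

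In the REV-ERB and ROR loop, the 2 REV-ERB genes stood on opposite sides. Nr1d1 (REV-ERB alpha) was at 43.3, 24.8 and 31.5 CPM at ZT8 and at 40.1, 43.7 and 46.9 CPM at ZT12 (0.40; SE, 0.18), overlapping only through ZT8 replicate 1, and it was the only clock gene called without that library (0.65; edgeR false discovery rate, 0.0223). Nr1d2 (REV-ERB beta) was at 76.9, 91.5 and 74.9 CPM and then at 64.5, 66.6 and 56.1 CPM (-0.38; SE, 0.15), without overlap. The activator genes Rora (-0.32) and Rorb (0.08) overlapped. Of the outputs, Nfil3 (0.70) and Bhlhe41 (-0.30) had an unadjusted p under 0.05 with overlapping groups, and Tef (-0.0010), Hlf (-0.03) and Bhlhe40 (0.08) did not. In the annotation Per3 overlaps Uts2 by 4714 bases, Nr1d1 overlaps Thra by 1075 and Dbp overlaps Sphk2 by 741, so reads there could belong to either gene. The libraries come from a stranded kit, but whether counting used strand is not given in the sources used here.

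**Figure D3:**
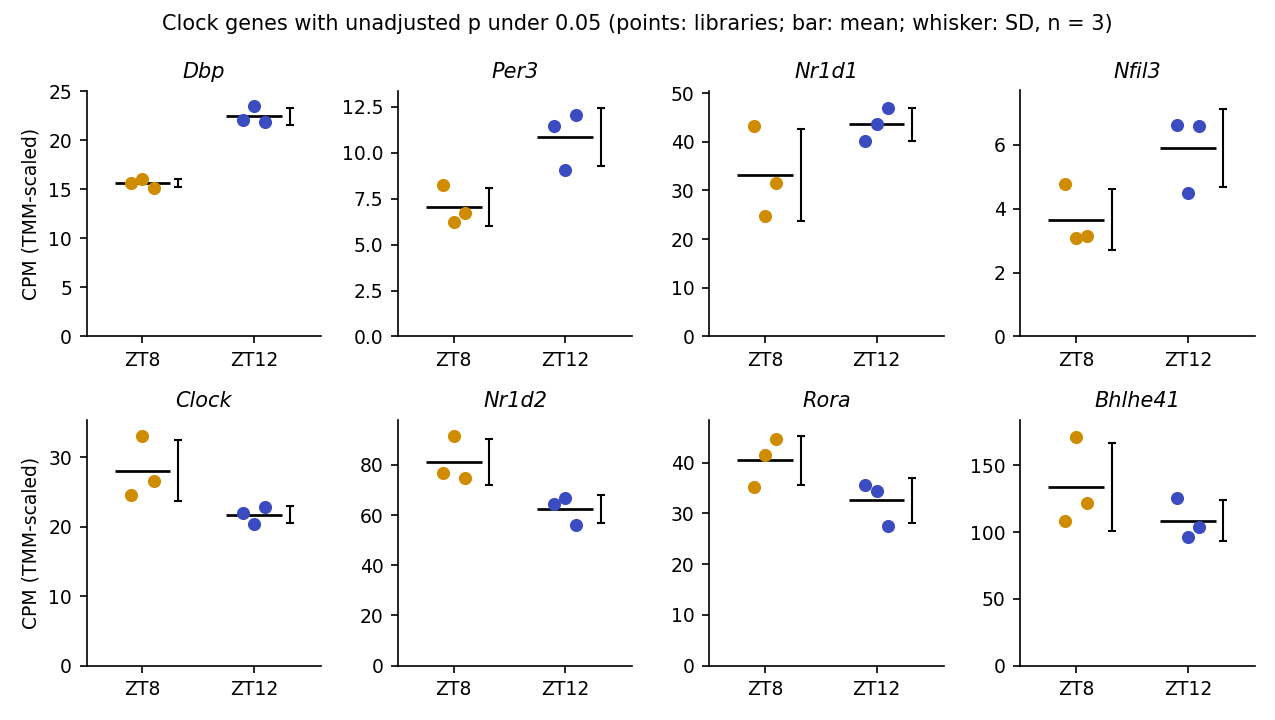
TMM-scaled CPM (vertical axes, from 0) of the 8 clock genes with an unadjusted p under 0.05 in the 3 ZT8 (orange) and 3 ZT12 (blue) libraries, with the mean as a bar and the SD (n = 3) as a whisker. Dbp and Per3 lie entirely higher and Clock and Nr1d2 entirely lower at ZT12, and none passed the false discovery rate over all genes.

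Upstream sequences of the clock genes were searched because E-boxes and D-boxes are the elements through which the loop acts. Each window (RefSeq, GRCm38.p6) was searched over the 250 bases before the start, and 17 of the 20 genes had one. The 50 bases after the start were left out of every motif search here. The E-box was searched as CACGTG, a palindrome, and occurs in 6.02% of 32851 promoter windows. It was found in 6 of the 23 windows of the clock genes. These belong to 5 of the 17 genes (Bhlhe41, Ciart, Cry1, Per1 and Tef), none of which differed without overlap. The D-box was searched on both strands as TTATGTAA, TTACATAA and TTACGTAA, which occur in 0.931% of windows, and only Per3 held it, at -205 and -158 from the start. The 250 bases before the start are shown for Per3 (chr4:151044666-151044915, minus strand), the only clock gene with D-boxes, and Ciart (chr3:95882229-95882478, minus strand), which holds 3 E-boxes at -116, -58 and -44, with the motifs in capitals.
Per3: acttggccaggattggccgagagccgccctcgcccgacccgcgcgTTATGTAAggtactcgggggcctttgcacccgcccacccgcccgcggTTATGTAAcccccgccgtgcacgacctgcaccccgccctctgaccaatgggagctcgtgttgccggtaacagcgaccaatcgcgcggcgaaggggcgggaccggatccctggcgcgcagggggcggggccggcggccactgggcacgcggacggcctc
Ciart: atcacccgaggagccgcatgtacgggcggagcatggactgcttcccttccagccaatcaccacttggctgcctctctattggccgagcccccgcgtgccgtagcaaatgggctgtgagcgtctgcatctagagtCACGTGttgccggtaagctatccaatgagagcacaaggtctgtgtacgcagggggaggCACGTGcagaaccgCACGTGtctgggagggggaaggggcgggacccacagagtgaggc
Per3, with the D-boxes, was higher in every ZT12 library, and Ciart, with the E-boxes, was at 9.67, 11.4 and 14.0 CPM and then at 12.6, 13.0 and 12.9 CPM.

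Genes of energy metabolism split into members that were higher and members that were lower. Nuclear genes of oxidative phosphorylation had a median log2 difference of -0.28 (84 tested), with 15 higher and 30 lower at an unadjusted p under 0.05 (11.3% and 9.71% of all genes). The median ran from -0.46 without all replicates numbered 1 to -0.14 without those numbered 3, and was -0.21 with offsets for transcript length and GC content. Groups that did not overlap were higher at ZT12 in 10 members, a share close to the 9.7% of all genes, and lower in 1, against 9%. Ndufv1, the flavoprotein of complex I that takes electrons from NADH, was at 408, 269 and 323 CPM and then at 474, 471 and 447 CPM (0.48; SE, 0.12). Atp5c1, the gamma subunit of the ATP synthase, was at 254, 196 and 191 CPM and then at 284, 312 and 270 CPM (0.43; SE, 0.11). Ndufb2, a small complex I subunit, was at 47.4, 31.8 and 30.7 CPM and then at 59.8, 61.7 and 56.4 CPM (0.70; SE, 0.15). Each ZT12 library exceeded each ZT8 library in these genes, and all of them were called without ZT8 replicate 1. The catalytic subunit gene Atp5b (0.75), Atp5a1 (0.32), Sdha (0.20) and Sdhb (0.37) were higher without overlap as well. Among the members with lower estimates were Ndufa1 (-0.72), Ndufs5 (-0.82), Uqcrh (-0.87), Atp5l (-0.74) and Cox7c (-0.74), whose groups overlapped. By complex, 5 members were higher and 15 lower in complex I (38 tested), 2 and 1 in complex II (4), 3 and 3 in complex III (9), 0 and 5 in complex IV (15) and 5 and 6 in the ATP synthase (17), again at an unadjusted p under 0.05.

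Ribosomal protein genes were lower by estimate. The 87 genes of the cytosolic ribosome had a median of -0.36, with 4 higher and 27 lower at an unadjusted p under 0.05 (11.3% and 9.71% of all genes), and 2 higher and 8 lower without overlap (9.7% and 9%). The median was -0.17 without ZT8 replicate 2, -0.53 without all replicates numbered 1 and -0.30 with the offsets. Rps13 was at 159, 276 and 201 CPM and then at 162, 134 and 97.6 CPM (-0.69; SE, 0.22), and Rps21 at 150, 272 and 208 CPM and then at 159, 103 and 100.5 CPM (-0.80; SE, 0.27). ZT8 replicate 1 lay inside the ZT12 range in both, and without it the differences were -0.84 and -0.97 (edgeR false discovery rates, 0.0189 and 0.0245). Rpl3 went the other way in every library, from 337, 317 and 308 CPM to 380, 400 and 362 CPM (0.25; SE, 0.08). The 77 mitochondrial ribosomal genes had a median of -0.12, with 5 higher, Mrps27 (0.49), Mrps2 (0.62) and Mrpl3 (0.79) among them, and 18 lower. Many ribosomal genes have processed copies in the genome, which makes their counts less certain. At an unadjusted p under 0.05, the lower members had shorter mRNAs by median than the higher ones, which were few (15, 4 and 5). The median transcript length was 572 bases for the lower and 1179 for the higher genes of oxidative phosphorylation, 612 and 1043 for the cytosolic ribosome, and 956 and 1366 for the mitochondrial ribosome. Over all tested members with a transcript it was 651, 711.5 and 1056 bases in the same order of lists.

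The 13 protein-coding genes of the mitochondrial genome had a median of 0.37. At an unadjusted p under 0.05 in edgeR, 4 were higher (ND5, ND2, CYTB and ND4) and 0 lower, against 11.3% and 9.71% of all genes. ND2 was at 153, 48.9 and 89.4 CPM and then at 120, 190 and 191 CPM (0.78; SE, 0.27). Without ZT8 replicate 1, ND2 differed by 1.29 (edgeR false discovery rate, 0.00246) and the list median was 0.55. Over all alternatives the list median ran from 0.12 without all replicates numbered 2 to 0.67 without those numbered 1. The difference of ND2 ran from 0.37 to 1.47. The groups overlapped in all 13, through ZT8 replicate 1 in ND2, and their summed level was 2890, 1654 and 3087 CPM at ZT8 and 2718, 3199 and 3397 CPM at ZT12.

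**Figure D4:**
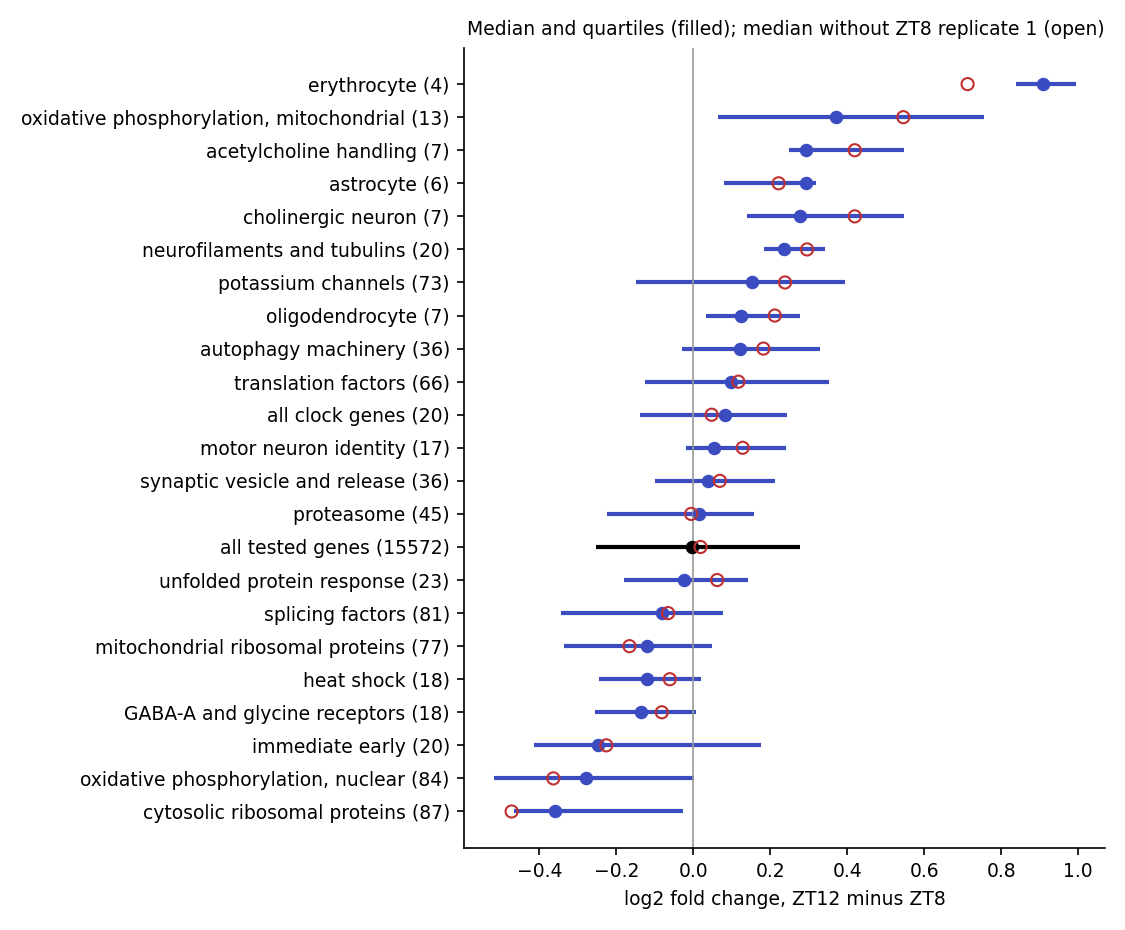
Median log2 difference, ZT12 minus ZT8 (horizontal axis), of a selection of the gene lists (vertical axis, genes tested in brackets), with the quartiles as a line and the median without ZT8 replicate 1 as an open circle. Of the lists drawn, the erythrocyte markers lie highest at 0.91 and the cytosolic ribosomal proteins lowest at -0.36, against a median of -0.0023 for all tested genes in black.

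Genes of protein quality control were mixed in sign. Of 18 heat shock genes (median, -0.12), 3 were higher and 5 lower at an unadjusted p under 0.05, against 11.3% and 9.71% of all genes. Hspe1, the mitochondrial co-chaperonin, was at 108, 181 and 147 CPM and then at 101, 107 and 75.6 CPM (-0.62; SE, 0.19; edgeR false discovery rate, 0.0908). Hspa8, the constitutive HSP70, was at 4167, 3575 and 3489 CPM and then at 4190, 5469 and 4655 CPM (0.35; SE, 0.11; 0.0909). Both separated the groups, in opposite directions, with Chordc1 and Hspe1 the only members lower and Hspa8 and Hspb8 the only ones higher without overlap. A heat shock element was searched on both strands as alternating GAA and TTC units, 3 in a row and spaced by 2 bases, in either order. It occurs in 0.466% of promoter windows and was found in 2 of the 20 windows of these genes. They belong to 2 of the 15 genes with a window, Hspe1 and Hspd1, which overlap by 96 bases in the annotation. The matches of both genes cover the same bases, so a single stretch was counted for both. Hspd1 was not among the members that separated the groups. The 250 bases before the start of Hspe1 (chr1:55087898-55088147, plus strand, RefSeq, GRCm38.p6) hold 2 overlapping matches, at -89 and -84, which are in capitals. The sequence is shown because Hspe1 was lower in every ZT12 library.
Hspe1: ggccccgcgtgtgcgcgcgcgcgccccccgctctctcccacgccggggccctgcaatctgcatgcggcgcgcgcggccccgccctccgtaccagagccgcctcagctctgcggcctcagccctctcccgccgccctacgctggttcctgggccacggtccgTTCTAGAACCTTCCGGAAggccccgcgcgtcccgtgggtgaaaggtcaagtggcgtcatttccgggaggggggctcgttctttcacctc
In the unfolded protein response list (23 genes; median, -0.02), 4 were higher and 3 lower. Sdf2l1, a chaperone cofactor of the endoplasmic reticulum, was at 6.81, 4.69 and 4.79 CPM and then at 9.66, 11.7 and 10.9 CPM (0.99; SE, 0.27), whereas Atf4, the transcription factor of the integrated stress response, was at 278, 349 and 327 CPM and then at 236, 243 and 189 CPM (-0.51; SE, 0.17). The groups did not overlap in either gene.

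Autophagy and proteasome genes that separated the groups were mostly higher at ZT12. Of 36 autophagy genes (median, 0.12), 8 were higher and 2 lower at an unadjusted p under 0.05, and 11 were higher and 0 lower without overlap. Of all genes, 11.3% and 9.71% met the first criterion and 9.7% and 9% the second. Sqstm1 (p62), the receptor that brings ubiquitinated cargo to autophagosomes, was at 731, 617 and 625 CPM and then at 926, 980 and 1031 CPM (0.57; SE, 0.12; edgeR false discovery rate, 0.0590). Ulk1, the kinase that starts autophagy, was at 91.7, 43.0 and 64.4 CPM and then at 95.2, 109 and 123 CPM (0.72; SE, 0.20), and Nbr1, another cargo receptor, at 84.1, 75.8 and 71.6 CPM and then at 93.0, 112 and 115 CPM (0.47; SE, 0.13). ZT12 exceeded ZT8 in every library, and these 3 were called without ZT8 replicate 1 and by DESeq2. Sqstm1 averaged 1134 ± 175 CPM at ZT16 and 1059 ± 94.2 CPM at ZT0, so that ZT8 held its lowest mean of the day. Of 45 proteasome genes (median, 0.01), 8 were higher and 4 lower at an unadjusted p under 0.05, and 11 were higher and 2 lower without overlap, so the lower members were about as frequent as among all genes by p. The core subunit gene Psmb7 was at 264, 191 and 211 CPM and then at 326, 318 and 301 CPM (0.51; SE, 0.11), the ATPase gene Psmc2 differed by 0.48 and the lid gene Psmd6 by 0.59. Assembly factor Pomp (-0.57), Psmd10 (-0.51), Psma4 (-0.28) and Psmb1 (-0.31) made up the lower members.

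Translation and splicing genes also divided. Of 66 translation factor genes (median, 0.10), 14 were higher and 9 lower at an unadjusted p under 0.05, against 11.3% and 9.71% of all genes. Eif4g2, a scaffold of cap-independent initiation, was at 571, 882 and 666 CPM and then at 496, 485 and 405 CPM (-0.61; SE, 0.13), and the helicase gene Eif4a2 at 943, 1479 and 1088 CPM and then at 859, 826 and 710 CPM (-0.55; SE, 0.13). Some subunits of eIF3 were on the other side. Eif3l was at 83.2, 60.7 and 61.0 CPM and then at 102, 96.3 and 99.1 CPM (0.54; SE, 0.13). Beside it stood Eif3h (0.51), Eif3f (0.53) and Eif3c (0.46), which were named after their values had been seen. None of these 6 overlapped between the times. Of 81 splicing factor genes (median, -0.08), 6 were higher and 19 lower by the same criterion, and 3 and 12 without overlap (9.7% and 9% of all genes). Tra2a, which promotes exon inclusion, was at 73.0, 113 and 89.1 CPM and then at 56.4, 58.3 and 50.1 CPM (-0.74; SE, 0.16; edgeR false discovery rate, 0.0590). The SR protein genes Srsf10 (-0.59), Srsf9 (-0.63) and Srsf1 (-0.42) and the hnRNP genes Hnrnpm (-0.56) and Hnrnph1 (-0.44) were lower without overlap, and Prpf19, of the spliceosome core, was higher, from 320, 202 and 214 CPM to 355, 400 and 433 CPM (0.69; SE, 0.16).

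Among 10 RNA-binding protein genes linked to amyotrophic lateral sclerosis (median, 0.02), 1 was higher and 3 lower at an unadjusted p under 0.05 (11.3% and 9.71% of all genes). The study selected such genes on these samples, so their direction is not independent evidence. Taf15 was at 73.6, 113 and 92.8 CPM and then at 57.2, 56.0 and 59.2 CPM (-0.70; SE, 0.18; edgeR false discovery rate, 0.0706), with the ZT12 libraries close together and below ZT8. Hnrnpa2b1 (-0.33) and Hnrnpa1 (0.31) overlapped.

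Genes of acetylcholine signalling were higher by estimate. All 7 genes of acetylcholine handling had a positive log2 difference (median, 0.29), 5 of them at an unadjusted p under 0.05 and 1 without overlap. Of all genes, 49.7% were higher by estimate, 11.3% higher at that p and 9.7% higher without overlap. Slc18a3, the vesicular acetylcholine transporter, was at 537, 244 and 319 CPM and then at 512, 524 and 631 CPM (0.60; SE, 0.23). Ache, acetylcholinesterase, was at 828, 423 and 532 CPM and then at 798, 763 and 954 CPM (0.50; SE, 0.20), and Chat, the synthesizing enzyme, at 23.3, 8.31 and 19.0 CPM and then at 18.3, 37.3 and 54.03 CPM (1.13; SE, 0.43). In these 3 the ZT8 and ZT12 ranges met through ZT8 replicate 1 or ZT12 replicate 1, and Slc18a3 lies within the span of Chat. Slc18a3 and Ache were called without ZT8 replicate 1 (edgeR false discovery rates, 0.00426 and 0.00504), and Chat was not (0.0506). That library was the highest of ZT8 in all 3, so these calls are not separate evidence. None of the 3 was called when any other single library of ZT8 or ZT12 was left out. Over all alternatives the difference ran from 0.39 to 1.049 for Slc18a3, 0.31 to 0.86 for Ache and 0.74 to 1.77 for Chat. The median of the acetylcholine handling list ran from 0.25 to 0.52. The other cholinergic markers gave 0.28 for Slc5a7, 0.23 for Isl1, 0.05 for Mnx1 and -0.02 for Prph, and the summed level of the 7 markers was 4685, 4230 and 4295 CPM at ZT8 and 4937, 4785 and 4854 CPM at ZT12. All 7 acetylcholine receptor genes tested were higher by estimate (median, 0.24), 2 of them at an unadjusted p under 0.05.

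Neurofilament and tubulin genes, which build the axonal cytoskeleton, gave 10 higher and 0 lower of 20 at an unadjusted p under 0.05 and 7 higher and 0 lower without overlap (median, 0.24). Among all genes the shares were 11.3% and 9.71% by p and 9.7% and 9% by overlap. Tubb4a was at 1285, 761 and 909 CPM and then at 1294, 1640 and 1608 CPM (0.62; SE, 0.15). Tubb5 was at 1405, 945 and 1101 CPM and then at 1507, 1526 and 1791 CPM (0.48; SE, 0.13), and Nefl, the light neurofilament chain, at 11675, 10041 and 9425 CPM and then at 12068, 13714 and 13367 CPM (0.33; SE, 0.09). Each gene separated the groups and was called without ZT8 replicate 1. The list median was 0.30 without ZT8 replicate 1 and 0.13 when transcript length and GC content were taken into account. Kinesin, dynein and dynactin genes (55; median, 0.01) gave 5 higher, Kif5a (0.42) among them, and 6 lower, Dync1li2 (-0.52) and Dynll2 (-0.39) among them, which is near the shares of all genes.

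Of 73 potassium channel genes (median, 0.15), 8 were higher and 7 lower at an unadjusted p under 0.05, close to the 11.3% and 9.71% of all genes. Kcng4, a modifier subunit, was at 518, 333 and 410 CPM and then at 537, 565 and 621 CPM (0.45; SE, 0.13), and Kcnc2, a fast Kv3 channel, at 47.6, 58.9 and 53.4 CPM and then at 39.7, 41.1 and 37.4 CPM (-0.44; SE, 0.13). Sodium and calcium channel genes (27; median, -0.0045) gave 3 higher, Cacna1c (0.36) and Scn9a (0.58, and 0.97 without ZT8 replicate 1) among them, and 1 lower, Cacna2d1 (-0.35). Grin1, the obligatory subunit of NMDA receptors, was at 386, 220 and 298 CPM and then at 426, 425 and 496 CPM (0.57; SE, 0.16) without overlap. Grina differed by 0.42 and Grin3a by -0.24. With Grin1 they were the 3 of 20 genes in the glutamate receptor list at that threshold (median, 0.02). Of 18 GABA-A and glycine receptor genes (median, -0.14), 1 was higher and 2 lower at that threshold, the latter being Gabra2 (-0.54) and Glrb (-0.25). Among 36 synaptic vesicle genes (median, 0.04; 8 higher, 5 lower), Sncg, gamma-synuclein, was at 248, 125 and 158 CPM and then at 276, 402 and 387 CPM (1.01; SE, 0.23). The calcium sensor gene Syt4 (-0.39) and the active zone gene Pclo (-0.48) stood on the other side, both without overlap.

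Genes of motor neuron identity (17; median, 0.05) included Mmp9, a mark of fast motor neurons, at 47.7, 34.4 and 33.0 CPM and then at 52.8, 63.1 and 57.8 CPM (0.59; SE, 0.18). Chodl, also a mark of fast motor neurons, was at 365, 488 and 421 CPM and then at 343, 366 and 313 CPM (-0.32; SE, 0.10), so the pair differed in sign. In total 3 members were higher and 1 lower at an unadjusted p under 0.05, against 11.3% and 9.71% of all genes.

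Genes that respond to hormones, temperature and activity were mixed in sign. Of 14 glucocorticoid-responsive genes (median, -0.03), 0 were higher and 2 lower at an unadjusted p under 0.05 in edgeR. Among all genes the shares were 11.3% and 9.71%, which apply to the other lists of this paragraph too. Tsc22d3, which encodes GILZ, was at 502, 639 and 542 CPM and then at 489, 445 and 404 CPM (-0.33; SE, 0.12; false discovery rate, 0.123), without overlap. Rbm3, an RNA-binding protein induced by mild cold, was at 53.1, 68.5 and 59.7 CPM and then at 89.6, 80.2 and 70.6 CPM without overlap (0.40; SE, 0.17), and its relative Cirbp differed by 0.06. Of 20 immediate early genes (median, -0.25), Jun was higher (0.37) and Btg2 (-0.61) and Homer1 (-0.44) were among the 3 lower. Cholesterol genes (23; median, 0.01) gave 4 higher and 3 lower, with Tm7sf2 at 1.13 and the transport gene Stard4 at -0.63.

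Of the lists of other cell types, the markers of red blood cells differed most by median. All 4 globin genes were higher without overlap (median, 0.91), as were 9.7% of all genes. The summed level of the 4 was 233, 363 and 428 CPM at ZT8 and 678, 750 and 597 CPM at ZT12. Hba-a1 was at 86.5, 129 and 150 CPM and then at 271, 289 and 237 CPM (1.13; SE, 0.23; edgeR false discovery rate, 0.0590). Its mean was 104 to 128 CPM at the other 5 time points and 266 ± 26.2 CPM at ZT12, so here the mean of ZT12 stood apart. Hba-a1 and Hba-a2 are near-identical, and reads cannot be divided between them with certainty. Astrocyte markers (6; median, 0.29) included Gfap at 47.0, 47.9 and 52.8 CPM and then at 56.8, 72.2 and 70.7 CPM (0.43; SE, 0.15) and Slc1a2 (0.32), the 2 at an unadjusted p under 0.05, both without overlap. At that p, 11.3% of all genes were higher and 9.71% lower. The summed level of the astrocyte markers was 149, 129 and 163 CPM at ZT8 and 173, 195 and 183 CPM at ZT12. Oligodendrocyte markers (7; median, 0.12) gave 2 higher, Mbp (0.34) and Cnp (0.27), with overlapping groups and summed levels of 2002, 1744 and 1840 CPM and of 1762, 2107 and 1961 CPM. With their score as a covariate no gene was called in edgeR and 3437 had an unadjusted p under 0.05. Microglia (5; median, -0.02), inhibitory neuron (4; 0.10), excitatory neuron (3; 0.40) and endothelial markers (4; 0.37) gave 0 higher and 1 lower at that threshold in edgeR, Cx3cr1 of microglia. No defining marker of these lists was at 0 throughout. The part of red blood cell and astrocyte RNA in the differences above was not tested.

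The differences were also graded by the base composition of the mRNA. Over 10089 genes with a mean of at least 5 CPM and a transcript in GENCODE M21, the median log2 difference went from -0.14 below 42% GC (644 genes) to 0.06 above 58% GC (1357 genes), and the share higher at ZT12 from 27.3% to 57.7%. The rank correlation of GC content and log2 difference was 0.22 across genes, which share the 6 libraries and are not independent, and that of transcript length was 0.04. At the lowest GC content the median deviation of a library from the mean of the 6 was -0.02, 0.20 and 0.06 in ZT8 replicates 1, 2 and 3 and -0.05, -0.04 and -0.11 in ZT12 replicates 1, 2 and 3. ZT8 replicate 2 deviated most, and at the highest GC content it was the lowest library at -0.12. With offsets for transcript length and GC content in each library, edgeR called 47 genes, 25 higher and 22 lower. Among them were Slc5a3, Bcl2l2, Rian, Chordc1, Tra2a and Eif4g2, lower, and Pank4, Surf1, Ndufb2, Prpf19, Impdh2 and Hba-a1, higher, each at a false discovery rate of 0.0475.

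**Figure D5:**
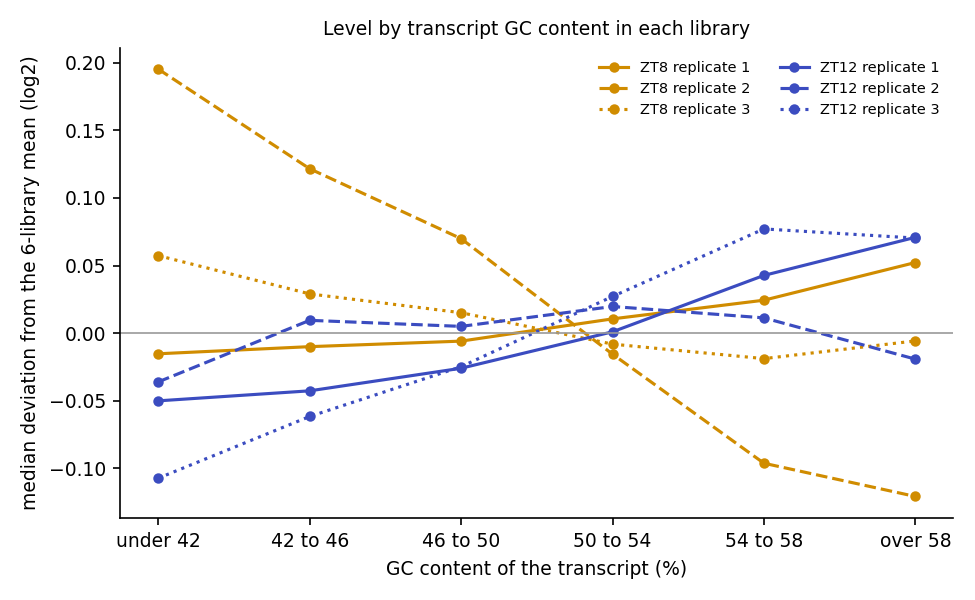
Median deviation of each library from the 6-library mean (vertical axis, log2) for genes grouped by GC content of the transcript (horizontal axis, %), with ZT8 in orange, ZT12 in blue and line style for the replicate. ZT8 replicate 2 runs from 0.20 below 42% GC to -0.12 above 58% GC, and ZT12 replicates 1 and 3 run the other way.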

How the data were processed

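Polyadenylated RNA was, by the labels and the study's methods, sequenced as paired ends, aligned with STAR 2.7.5 to mm10 and quantified with RSEM, all samples having been handled on the same day. The authors deposited expected counts of RSEM for each gene, without normalization. They were rounded here, filtered with filterByExpr over the 6 time points (15572 of 50559 genes) and scaled by TMM. No column of values was left unmapped (0). ZT12 minus ZT8 was tested with the quasi-likelihood test of edgeR 4.0.16 (R 4.3.3) fitted to the 18 immunoprecipitates, and p-values were adjusted by Benjamini-Hochberg over all genes, at 0.05. SEs come from the F statistic, and log2 CPM carried a prior count of 2. The common coefficient of variation was 19.2%. DESeq2 1.42.0, other scalings, filters, covariates and left-out libraries were alternatives. Offsets by a spline of transcript length and GC content (94.6% of tested genes matched by symbol) were added after the data had been seen.

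Named genes were the clock genes, the 10 lowest p in each direction among genes with non-overlapping groups, the 5 largest differences in each direction among those at 10 CPM or more, the 3 lowest p of each list, and the 5 lowest p in each direction without ZT8 replicate 1. Other list members were named after their values had been seen. Some list members that were counted are not reported here by name. The comparison, the members and the lists were chosen with earlier results of these data known. Lists are described by counts and medians with no test. Coordinates are RefSeq GRCm38.p6, matched by symbol (146 of 146 named genes). The labels give each library as a biological replicate, and the methods give a spinal cord for each. Floors allow for counting error alone, because PCR copies could not be told apart.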

Additional observations from a re-analysis of the deposited data

How the results depend on the processing

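The number of genes called moved with the filter on low counts, the test and single libraries, whose omission also changed the set of genes tested. It was 0 with DESeq2 size factors, library totals, upper quartile scaling and the oligodendrocyte score, 55 with at least 10 counts in total, 1429 with at least 1 count, 859 with DESeq2, 3 with the 6 libraries alone, and 47 with offsets for transcript length and GC content. Leaving out 1 library gave from 0 to 2141 genes. The count was 2141 without ZT8 replicate 1 and 295 without ZT16 replicate 3, and a single gene (1) was called when ZT4 replicate 1 was left out. Leaving out replicate number 1, 2 or 3 gave 1448, 0 and 0. Genes at an unadjusted p under 0.05 ranged from 1130 to 4577 over left-out libraries and replicate numbers (1703 without ZT8 replicate 2, 2137 without ZT12 replicate 3), and genes with groups that do not overlap from 3857 to 6727. Fewer libraries make non-overlap easier, and the other causes were not tested. The first component differed by -18.6 to -38.0 over left-out libraries, with the same sign throughout. No pairing by replicate number was seen. Deviations of same-numbered libraries correlated at -0.14, -0.02 and -0.03, and those of differently numbered libraries from -0.10 to 0.13. With 3 libraries in each group, whose deviations sum to 0, these values cannot exclude pairing. The fit with the replicate block called 80 genes. Apart from the clock genes, named genes were picked by p or size of difference in these data. The alternatives refit the same counts, so kept signs are not separate evidence. Named genes kept their sign in 1451 of 1455 values under the other alternatives. The exceptions were Tef, whose log2 difference was 0.0089 with upper quartile scaling, 0.0028 with at least 1 count and 0.0020 with the replicate block, and Per1, at -0.031 with the offsets. With libraries or replicate numbers left out, 32 of 3065 values changed sign. The ranges of these genes were -0.013 to 0.28 for Arntl, -0.54 to 0.0054 for Bhlhe41, -0.20 to 0.25 for Cirbp, -0.16 to 0.33 for Cry1, -0.12 to 1.77 for Csf1r, -0.0026 to 0.37 for Gad2, -0.24 to 0.30 for Hlf, -0.16 to 1.38 for Lmx1b, -0.033 to 0.25 for Per1, -0.14 to 0.31 for Rorb, -0.14 to 0.15 for Tef and -0.051 to 0.57 for Tmem119. Of the list medians, 11 of 370 changed sign under the other alternatives and 39 of 777 with libraries or replicate numbers left out.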
